A study of Homo sapiens with 7 samples.

Results

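The MYC network is a small family of transcription factors that share a dimer partner, MAX, and bind the same DNA motif. The genes were taken by name: MYC, MYCN, MYCL, MAX, MXD1, MXI1, MXD3, MXD4, MNT and MLX. Of these 10 genes, 9 had a row among the 16527 genes of the authors' deposited table, and MYCN was not analysed here. RNA had been sequenced from AXL knockout PC9 cells (4 libraries, from 2 clones with 2 libraries each) and from parental PC9 cells (3 libraries). PC9 is an established human lung cancer line with an activating EGFR mutation, and AXL is a receptor tyrosine kinase. Each clone was grown from a single sorted cell, so a difference that arose in a founding cell and an effect of the lost receptor cannot be told apart. All cells were grown in RPMI medium with no treatment, and the labels leave unsaid whether a group's libraries are separate cultures, so p-values measure only the spread between these libraries, which may be technical.

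MYC proteins activate genes of cell growth, ribosome production and nucleotide synthesis when paired with MAX. The MXD proteins (MXD1, MXI1, MXD3 and MXD4) and MNT compete for MAX and bring SIN3 and histone deacetylase corepressors to the same sites, and MXD1 is known for its rise during epithelial differentiation. MLX is a second, MAX-like hub: it pairs with the glucose-sensing factors MondoA (gene MLXIP) and ChREBP (gene MLXIPL), and also with MXD1, MXD4 and MNT. MGA pairs with MAX inside a polycomb repressor complex.

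The DNA motif that these dimers bind, the E-box CACGTG, was looked for in the promoter windows of the network genes themselves, since the family is known to act on its own genes. Windows run from 250 bases before to 50 bases after a gene's start in RefSeq (GRCh38.p14), and were taken for 8 of the 9 genes. The promoter of MYC was not analysed here. CACGTG is its own reverse complement. These genes have 11 windows, since some have several starts. CACGTG was present in 3 of the 11 windows (of MXD4, MNT and MLX), against 7.26% of all 35116 windows of that length. The variant CACGCG, searched on both strands and sharing no position with CACGTG in these windows, was present in 2 of the 11 windows (of MXI1 and MXD3), against 11.4% of all windows. A match describes letters in this window and not a bound site. The 3 genes whose RNA passed the test below are shown over their whole window, with CACGTG in capitals. The window of MXD4 lies at chr4:2262060-2262359 on the minus strand, that of MYCL at chr1:39901868-39902167 on the minus strand and that of MXD1 at chr2:69914859-69915158 on the plus strand. These letters are not in the windows of MYCL and MXD1.
MXD4: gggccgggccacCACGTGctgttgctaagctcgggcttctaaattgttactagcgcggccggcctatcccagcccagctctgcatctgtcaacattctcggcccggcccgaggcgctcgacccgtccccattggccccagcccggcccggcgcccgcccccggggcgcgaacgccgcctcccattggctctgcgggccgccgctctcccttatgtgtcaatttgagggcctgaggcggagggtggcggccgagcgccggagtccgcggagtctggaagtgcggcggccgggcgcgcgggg
MYCL: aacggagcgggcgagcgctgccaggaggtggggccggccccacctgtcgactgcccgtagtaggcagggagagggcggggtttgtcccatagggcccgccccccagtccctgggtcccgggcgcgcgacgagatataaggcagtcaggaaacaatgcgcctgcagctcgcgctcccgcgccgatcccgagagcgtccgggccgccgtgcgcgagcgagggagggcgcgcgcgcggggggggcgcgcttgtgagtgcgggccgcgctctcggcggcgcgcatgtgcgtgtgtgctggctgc
MXD1: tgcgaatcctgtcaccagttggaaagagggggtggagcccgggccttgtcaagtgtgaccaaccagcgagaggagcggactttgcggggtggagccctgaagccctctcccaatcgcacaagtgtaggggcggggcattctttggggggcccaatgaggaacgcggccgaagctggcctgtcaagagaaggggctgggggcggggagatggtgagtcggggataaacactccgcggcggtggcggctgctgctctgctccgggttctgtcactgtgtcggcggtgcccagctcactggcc

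The motifs of the other 4 genes are shown as stretches of 30 bases, to set beside them the same letters in genes that did not pass the test (CACGTG, or CACGCG on either strand, in capitals). The MNT stretch is chr17:2401236-2401265 on the minus strand, with its motif starting at position -193 from the gene's start, and that of MLX is chr17:42567038-42567067 on the plus strand, with its motif at -50. In MXD4 the motif starts at -238. The MXD3 stretch is chr5:177312727-177312756 on the minus strand and that of MXI1, from the third of its 3 RefSeq starts, is chr10:110225992-110226021 on the plus strand; in both the motif starts at base 9 after the start.
MNT: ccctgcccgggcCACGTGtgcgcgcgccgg
MLX: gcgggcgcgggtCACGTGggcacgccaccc
MXD3: aaaaggccatttCGCGTGcctccagggtat
MXI1: aggtaaacaaacCACGCGcgggctgcccgc

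For each gene the authors' deposited table gives a normalized count averaged over the 7 libraries, the log2 fold change, a standard error for it, and a p-value adjusted over all genes. A gene passed the test, or was called, when that adjusted p was under 0.05. Levels of single libraries were not analysed here: a level of a group is the normalized count per library that the mean and the fold change together imply, and it carries no spread of its own. The mean counts sum to 12209504 reads for an average library. Tags were primed from poly-T, so counts follow the number of transcripts near their 3' ends, and each gene is compared only with itself. Fold changes are knockout over parental, followed by the authors' standard error. AXL was used as the check of the labels, with an implied level of 18.2 in knockout and 1417 in parental cells and a log2 fold change of -6.28 ± 0.18 in the authors' deposited table. All 8 epithelial markers listed were tested, with a summed level of 163865 in knockout and 116697 in parental cells. Of these, 5 were higher (62.5%, against 19.5% of all genes) and 1, CDH1, was lower (12.5%, against 18.5%), at 2392 in knockout and 3007 in parental cells. Most of the difference in the sum lies in the keratins KRT8, KRT18 and KRT19, and EPCAM was at 7789 in knockout and 7953 in parental cells.

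Across the network, MYCL and MXD1 were higher in AXL knockout cells, MXD4 was lower, and the remaining 6 genes did not pass the test. In the authors' deposited table, 3 of 9 genes (33.3%) were thus called, against 38.0% of all 16522 genes tested. By direction, 2 of 9 were higher, against 19.5% of all genes, and 1 of 9 was lower, against 18.5%. The network's share of called genes was thus no larger than that of all genes. The shares of all genes, here and below, include 4369 genes with a mean under 20, and none of the 9 had so low a mean. Over genes with a mean of at least 20 (the 16522 without those 4369), adjusted anew, 3092 were higher and 2759 lower. The same 3 network genes were called. The shares over these genes are thus larger than 19.5% and 18.5%. Most lists below hold no gene with a mean under 20. Beside these genes an excess over the shares of all genes would be smaller, and a deficit larger. The median log2 fold change of the 9 genes was 0.04, and that of all genes was -0.01. The median size of the change, whatever its sign, was 0.09 over the 9 genes, 0.28 over all genes and 0.22 over genes with a mean of at least 20, as all 9 had.

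**Figure D1:**
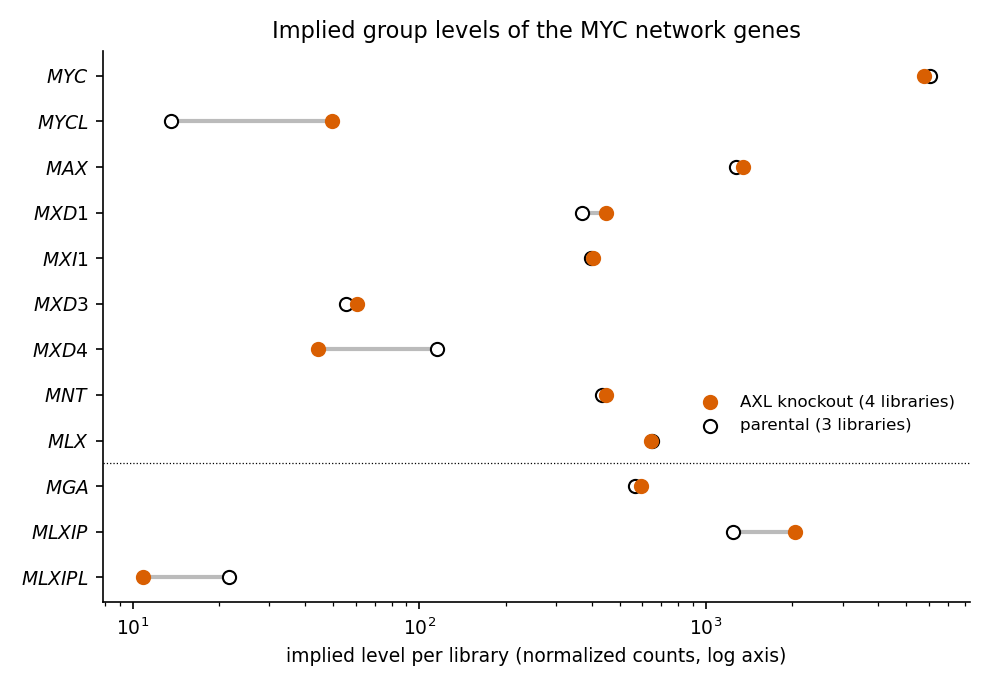
Implied level per library (normalized counts, log axis) of the 9 network genes and, below the dotted line, of MGA, MLXIP and MLXIPL; filled points are AXL knockout cells and open points parental cells. The wide gaps are those of MYCL (49.8 in knockout and 13.6 in parental cells) and MXD4 (44.2 and 115), while the points of MYC, MAX, MXI1, MNT and MLX nearly coincide.

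MYC itself, the growth-promoting partner of MAX, had an implied level of 5761 in AXL knockout and 6071 in parental cells. Its log2 fold change in the authors' deposited table was -0.08 ± 0.05, with an adjusted p of 0.204 from their Wald test. The 95% interval of the change ran from -10.9% to 1.08%. With about 41257 reads over all libraries, a log2 change of 0.11 would have been called for MYC, and the measured change was smaller. The non-coding RNA PVT1, its neighbour on chromosome 8 and picked after its value was known, was at 152 in knockout and 188 in parental cells (-0.31 ± 0.13, adjusted p 0.0486 in the authors' table).

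MYCL, the paralogue first found amplified in small cell lung cancer, was higher in AXL knockout cells. Its implied level was 49.8 in knockout and 13.6 in parental cells. The authors' deposited table gave a log2 fold change of 1.87 ± 0.36 and an adjusted p of 1.38e-06, with a 95% interval of 2.24-fold to 5.95-fold. Ranked from the highest fold change, it stood at place 349 of 16522 genes. In bulk RNA, more cells with a transcript and more of it per cell cannot be told apart. The value rests on few reads, about 199 in the 4 knockout libraries and 40.9 in the 3 parental libraries. The standard error was 1.27 times the median of the 1194 genes with a mean within 1.5-fold of it.

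MAX, the shared partner, was at 1350 in AXL knockout and 1269 in parental cells. The authors' deposited table gave 0.09 ± 0.07 (adjusted p 0.304), with an interval of -2.67% to 16.2%. MLX, the parallel hub, was at 643 in knockout and 647 in parental cells (-0.01 ± 0.07, adjusted p 0.943 in the authors' table), with an interval of -10.2% to 9.98%. Neither hub passed the test in either direction. MAX shares its annotated span with FNTB on the opposite strand, which was higher (0.31 ± 0.12, adjusted p 0.0251 in the authors' table), and MLX with PSMC3IP, also on the opposite strand (-0.34 ± 0.16, adjusted p 0.0798). Whether reads were assigned by strand is not given in the sources used here, so reads of such pairs cannot be told apart.

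Among the MAX-binding repressors, MXD4 and MXD1 moved in opposite directions and MXI1 and MXD3 did not pass the test. MXD4 was at 44.2 in AXL knockout and 115 in parental cells, with a log2 fold change of -1.38 ± 0.19 and an adjusted p of 1.06e-11 in the authors' deposited table. That is 2.6-fold lower in knockout cells, with an interval of -70.4% to -50.0% for the change. It rests on about 177 reads in the knockout libraries and 345 in the parental libraries, and its standard error was 1.01 times the median of genes of similar mean. MXD1 was at 450 in knockout and 369 in parental cells, a log2 fold change of 0.29 ± 0.09 with an adjusted p of 0.00667 in the same table. Its 95% interval was 7.62% to 38.4% higher.

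The call for MXD1 depended on the reference distribution. Under a t distribution with 5 degrees of freedom its adjusted p was 0.0937 (range over the settings tried 0.00528 to 1), and 21.0% of all genes were called. These degrees of freedom count libraries and not clones. MYCL and MXD4 kept their calls there, with an adjusted p of 0.0242 (range 1.03e-06 to 0.0242) and of 0.00994 (range 7.8e-12 to 0.00994). MXD1 also shares its annotated span with SNRNP27 on the same strand, a splicing factor gene whose log2 fold change was 0.01 ± 0.11 in the authors' deposited table.

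MXI1, the repressor also known as MXD2, was at 405 in AXL knockout and 396 in parental cells (0.03 ± 0.09, adjusted p 0.84 in the authors' deposited table). MXD3, whose RNA is known from proliferating cells, was at 60.6 in knockout and 55.4 in parental cells (0.13 ± 0.21, adjusted p 0.692). A log2 change under 0.50 could not have been called for MXD3, which had about 408 reads in all. It overlaps RAB24 on the same strand (mean count 37.7, 0.16 ± 0.27) and PRELID1 on the opposite strand. PRELID1 had a mean count of 1300, against 58.3 for MXD3, and was lower (-0.17 ± 0.06, adjusted p 0.0265 in the authors' table). MNT, the broadly expressed repressor, was at 447 in knockout and 435 in parental cells (0.04 ± 0.09, adjusted p 0.788 in the authors' table), with an interval of -9.27% to 16.4%.

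**Figure D2:**
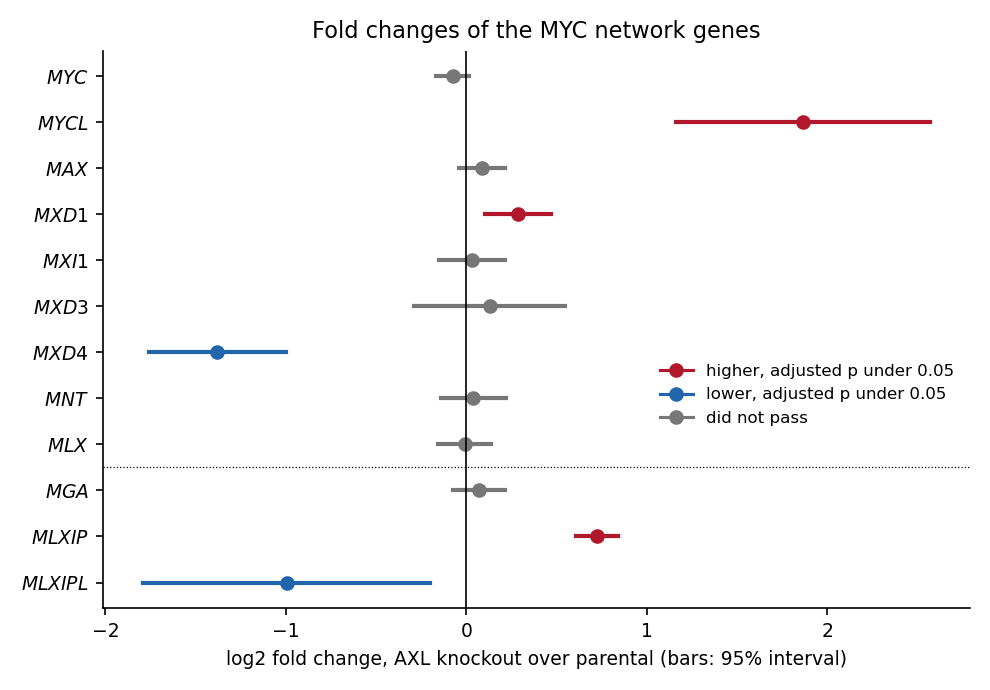
Log2 fold change, AXL knockout over parental, of the network genes in the authors' deposited table, with 95% intervals as bars; red marks genes called higher, blue lower, grey those that did not pass. The intervals of MYCL (1.16 to 2.57) and MXD4 (-1.758 to -1.001) lie clear of those of the other 7 members, and the interval of MXD1 (0.11 to 0.47) overlaps those of its relatives MXI1 and MXD3.

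The partners outside the 9 genes gave a split picture for the Mondo factors. MLXIP, which encodes MondoA, the MLX partner that responds to glucose phosphates, was at 2047 in AXL knockout and 1240 in parental cells. The authors' deposited table gave 0.72 ± 0.06 and an adjusted p of 3.22e-32. MLXIPL, which encodes ChREBP, was at 10.9 in knockout and 21.6 in parental cells (-0.996 ± 0.41, adjusted p 0.039), and that call was lost with the t distribution (adjusted p 0.159, range over the settings tried 0.0375 to 1). MGA did not pass, at 594 in knockout and 566 in parental cells (0.07 ± 0.07, adjusted p 0.504).

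Each gene was next set beside the 10 nearest genes on either side with a mean of at least 50, at positions of GENCODE 29 (GRCh38), to show what its region did. MYCL (chromosome 1, 39895426 to 39902256) stood above all 20 neighbours, whose median log2 fold change in the authors' deposited table was -0.01. MXD1 (chromosome 2, 69897688 to 69942945) stood above 17 of 20, with a median of -0.01 as well. The rise of MYCL was not shared by its region. The 3 neighbours above MXD1, namely AAK1 (0.88), ANXA4 (0.44) and GMCL1 (0.48), lie in a row shortly before it. Of all 20 neighbours of MXD1, 5 were higher and 6 lower, so its rise was not shared by the region as a whole.

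MXD4 (chromosome 4, 2247432 to 2262294) lay in a region that was itself lower: 14 of its 20 neighbours were lower and 0 were higher in the authors' deposited table, with a median of -0.36. MXD4 was below all 20, by 1.02 on the log2 scale under that median. MNT (chromosome 17, 2384060 to 2401118) showed the reverse contrast. Of its 20 neighbours, 17 were lower and 1 was higher, with a median of -0.42, while MNT had 0.04 ± 0.09 and stood above 18 of them. MLXIP (chromosome 12, 122078722 to 122147347) lay in a run of higher genes, with 19 of 20 neighbours higher, none lower and a median of 0.54, and 5 of them had a larger rise than MLXIP. MYC (chromosome 8, 127735434 to 127741434) had neighbours with a median of 0.09, of which 6 were higher and 3 lower. The part of the regions in these results was not tested.

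**Figure D3:**
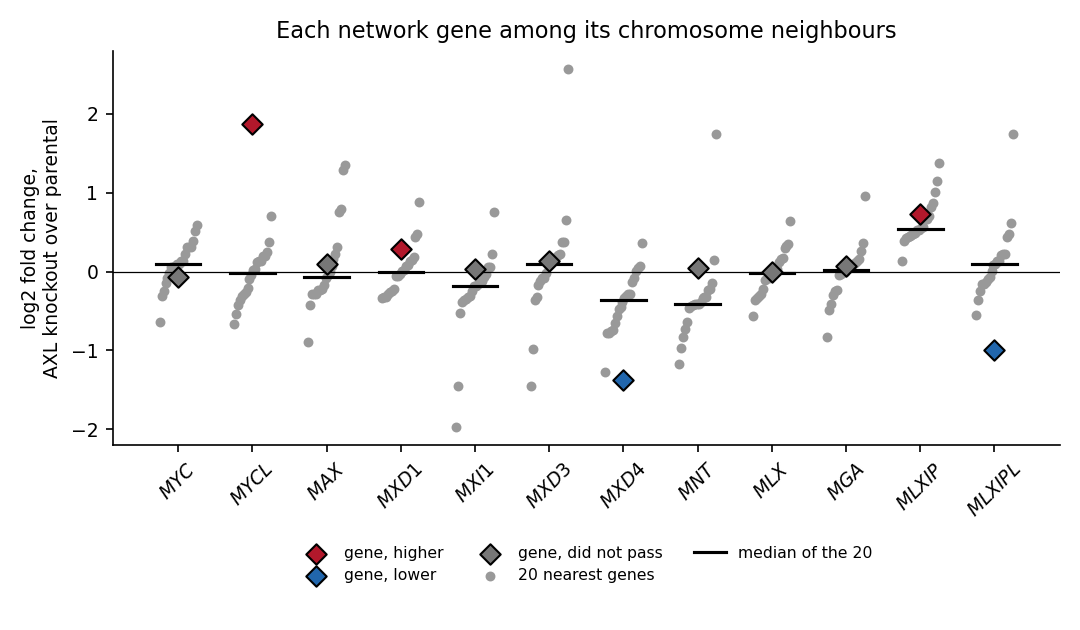
Log2 fold change, AXL knockout over parental, of each network gene (diamond; red higher, blue lower, grey did not pass) and of its 20 nearest genes on the chromosome (grey points, sorted by value; line, their median). MYCL stands above and MXD4 below all of its 20 neighbours, MNT stands above 18 of neighbours with a median of -0.42, and MLXIP lies inside neighbours with a median of 0.54.

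Corepressors that the MXD proteins and MNT bring to DNA were either higher or did not pass. Of 17 genes of the SIN3, histone deacetylase and related corepressor complexes, 8 were higher and 0 lower in the authors' deposited table. That is 47.1% higher, against 19.5% of all genes, and 0% lower, against 18.5%, with a median of 0.17. SUDS3, a SIN3 complex subunit, was at 1208 in AXL knockout and 934 in parental cells (0.37 ± 0.06, adjusted p 1.05e-08). RBBP7, a histone-binding subunit, had 0.19 ± 0.05 (adjusted p 5.08e-04). SUDS3 lies on chromosome 12, where 11 of its 20 neighbours were higher (median 0.19). With the t distribution only 2 of the 17 were called, both higher, beside 1862 higher and 1614 lower of all 16522 genes.

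Of 20 cofactors of activation by MYC, 4 were higher, 6 lower and 10 did not pass in the authors' deposited table (median -0.05). That is 20% higher, against 19.5% of all genes, and 30.0% lower, against 18.5%. EP400, the motor of the TIP60 histone acetyltransferase complex, was at 1435 in AXL knockout and 1040 in parental cells (0.46 ± 0.06, adjusted p 7.2e-12), among chromosome 12 neighbours with a median of 0.21. SP1, a promoter-binding factor, had 0.39 ± 0.06 (adjusted p 1.4e-08). HCFC1, a chromatin cofactor that MYC binds, was lower, at 1325 in knockout and 1900 in parental cells (-0.52 ± 0.07, adjusted p 2.81e-12).

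Regulators of MYC protein held the largest change of these control layers. PIM1, a kinase that phosphorylates MYC and raises its stability, was at 1258 in AXL knockout and 381 in parental cells (1.72 ± 0.09, adjusted p 1.36e-77 in the authors' deposited table). CIP2A, an inhibitor of the phosphatase that destabilises MYC, was at 879 in knockout and 1608 in parental cells (-0.87 ± 0.06, adjusted p 4.23e-43). FBXO32, an F-box protein of ubiquitin ligases, was at 300 in knockout and 636 in parental cells (-1.09 ± 0.09, adjusted p 2.0e-32). In all, 3 of 22 such genes rose (13.6%, against 19.5% of all genes) and 7 fell (31.8%, against 18.5%), with a median of -0.02. The neighbours of CIP2A on chromosome 3 had a median of -0.74, close to its own value, whereas PIM1 stood above and FBXO32 below nearly all of theirs (20 and 19 of 20).

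Regulators of MYC transcription and mRNA included 3 that rose and 6 that fell among 16 tested in the authors' deposited table (median -0.09). That is 18.8% higher, against 19.5% of all genes, and 37.5% lower, against 18.5%. CTNNB1, which encodes beta-catenin, was at 3248 in AXL knockout and 4235 in parental cells (-0.38 ± 0.05, adjusted p 1.66e-15). E2F1 was at 1085 in knockout and 744 in parental cells (0.54 ± 0.09, adjusted p 2.39e-09). IGF2BP3, an RNA-binding protein that protects MYC mRNA, had -0.38 ± 0.07 (adjusted p 3.36e-07). MYC mRNA itself, with -0.08 ± 0.05, did not pass beside these changes.

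Genes classically described as MYC targets were lower more often than higher. Of 31 such E-box genes tested, 16 were lower and 3 higher in the authors' deposited table, 51.6% lower against 18.5% of all genes and 9.68% higher against 19.5%, with a median of -0.16. The enzymes of purine synthesis PAICS (2198 in AXL knockout and 4638 in parental cells, -1.08 ± 0.05, adjusted p 2.61e-100) and PPAT (243 and 567, -1.22 ± 0.09, adjusted p 3.63e-39) are close neighbours on chromosome 4, in a region where the 20 nearest genes had a median of -0.66. TERT, the catalytic subunit of telomerase, was at 3.54 in knockout and 224 in parental cells (-5.98 ± 0.42, adjusted p 7.38e-45), below all 20 of its neighbours. Its value rests on about 14.2 reads in the knockout libraries, and its standard error was 2.47 times the median of genes of similar mean. ODC1, a polyamine enzyme picked after its value was known, was at 4602 in knockout and 7134 in parental cells (-0.63 ± 0.06). Mitochondrial transcripts, a sign of RNA quality, also fell in these libraries, with 13 of 13 lower, a summed level of 245327 in knockout and 413582 in parental cells and a median of -0.73. Ribosomal protein genes had a median of 0.06, with 8 of 33 higher (24.2%, against 19.5% of all genes) and 3 lower (9.09%, against 18.5%). Their part in the result was not tested.

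Nucleolar, ribosome assembly and growth genes that MYC is known to activate showed smaller shifts. Of 55 genes, 19 were lower, 34.5% against 18.5% of all genes, 9 were higher, 16.4% against 19.5%, and 27 did not pass in the authors' deposited table, with a median of -0.11. MYBBP1A, a nucleolar protein, was at 1721 in AXL knockout and 2761 in parental cells (-0.68 ± 0.07, adjusted p 7.38e-22), in a region of chromosome 17 with a median of -0.39. HK2, a hexokinase, was at 1201 in knockout and 1971 in parental cells (-0.71 ± 0.06, adjusted p 3.49e-27). SLC29A2, a nucleoside transporter, was higher, at 1081 in knockout and 629 in parental cells (0.78 ± 0.07, adjusted p 1.58e-30). With the t distribution 11 of the 55 were lower and 3 higher, beside 1614 lower and 1862 higher of all 16522 genes.

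Of 13 genes that MYC is known to repress, 3 rose (23.1%, against 19.5% of all genes) and 5 fell (38.5%, against 18.5%) in the authors' deposited table, with a median of -0.21. NDRG2, a growth-restraining gene, was at 546 in AXL knockout and 38.2 in parental cells (3.84 ± 0.17, adjusted p 2.4e-105). CDKN1A, the cell cycle inhibitor p21, was at 91.7 in knockout and 434 in parental cells (-2.24 ± 0.13, adjusted p 2.01e-65). FTH1, the ferritin heavy chain, had -0.65 ± 0.05 (adjusted p 6.74e-32).

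Genes known as targets of MondoA and ChREBP with MLX were more often higher than lower. Whether these factors act on them in these cells was not tested. Of 10 genes tested, 6 were higher (60.0%, against 19.5% of all genes) and 1 was lower (10%, against 18.5%) in the authors' deposited table, with a median of 0.24. ELOVL6, a fatty acid elongase, was at 1543 in AXL knockout and 1195 in parental cells (0.37 ± 0.06, adjusted p 2.46e-09). TKFC, a fructose-pathway kinase, was at 862 in knockout and 651 in parental cells (0.41 ± 0.08, adjusted p 2.0e-06), and KLF10 was lower (-0.29 ± 0.07, adjusted p 6.19e-05). TXNIP, the best known MondoA target, picked likewise, was at 2811 in knockout and 2293 in parental cells (0.29 ± 0.07, adjusted p 8.45e-05), while its relative ARRDC4 did not pass (0.17 ± 0.10, adjusted p 0.148). With the t distribution 3 of the 10 were higher, beside 1862 of all 16522 genes.

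**Figure D4:**
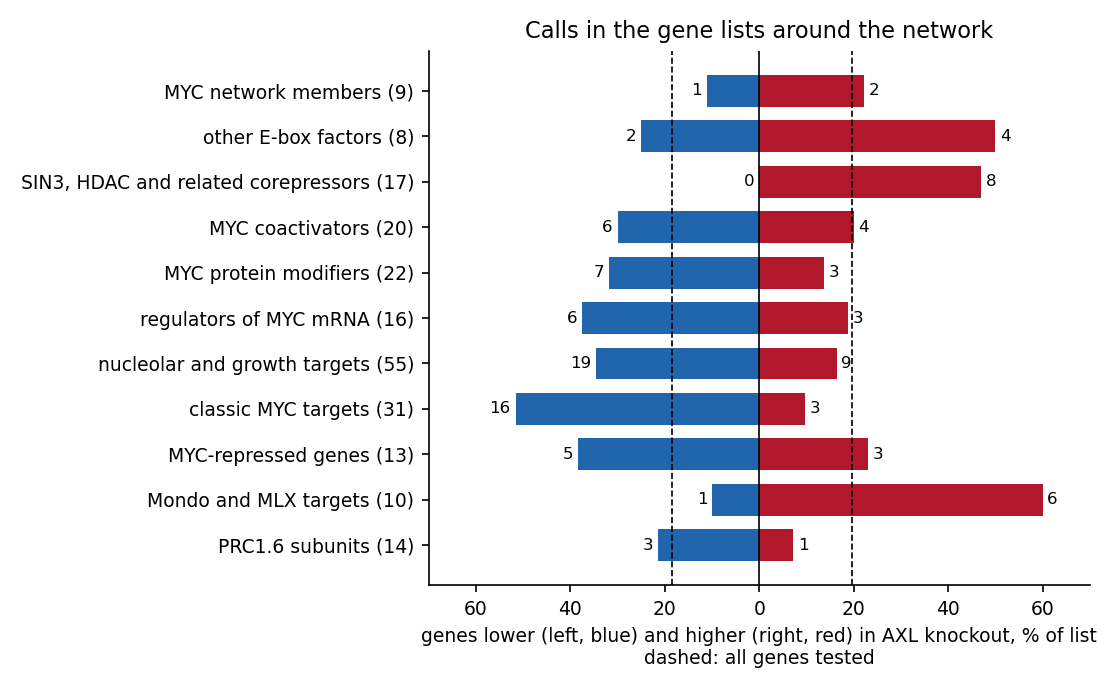
Percent of each gene list called higher (red, right) and lower (blue, left) in AXL knockout over parental cells, with the number of genes called at the bar ends, list sizes in brackets and dashed lines at 19.5% and 18.5% for all genes tested. The network members lie near the dashed lines, the corepressors hold 8 higher and 0 lower genes, and the classic MYC targets hold 16 lower and 3 higher genes.

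**Figure D5:**
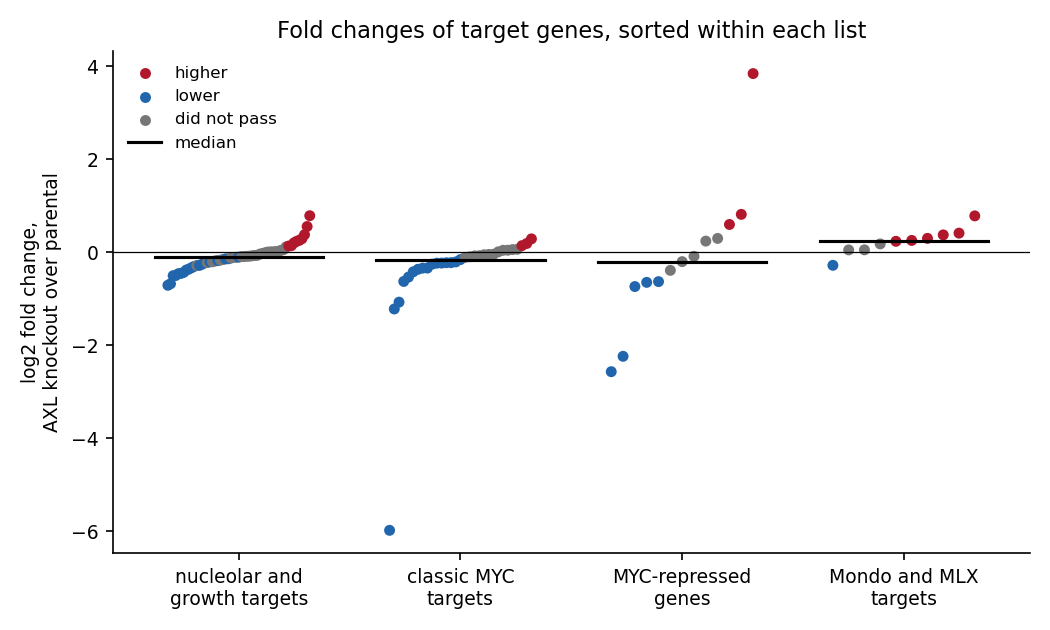
Log2 fold change, AXL knockout over parental, of each tested gene in 4 target lists, sorted within the list; red marks genes called higher, blue lower, grey those that did not pass, and lines are medians (-0.11, -0.16, -0.21 and 0.24 from left to right). Most values in the other lists lie close to 0, with TERT at -5.98 in the classic MYC targets, while the MYC-repressed genes run from THBS1 at -2.57 to NDRG2 at 3.84.

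Of 8 genes for other proteins that bind E-boxes without MAX, 4 rose (50%, against 19.5% of all genes) and 2 fell (25.0%, against 18.5%) in the authors' deposited table. With the t distribution 0 of them were called, against 21.0% of all genes. MITF, a factor of the melanocyte lineage, was at 84.4 in AXL knockout and 126 in parental cells (-0.58 ± 0.16, adjusted p 9.32e-04). SREBF2, the sterol regulator, had 0.27 ± 0.08 (adjusted p 0.00189) and TFAP4, itself a MYC target, 0.25 ± 0.07 (adjusted p 0.00221). TFEB, picked after its value was known, had 0.97 ± 0.34.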

How the data were processed

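RNA of 7 PC9 libraries had been made into bulk MARS-seq libraries from poly-T primers and mapped to the human genome, per the labels' protocols. DESeq2 is named, without a version, per the submitters' processing notes. Aligner, counting method, strand, molecular identifiers, genome build and annotation: not given in the sources used here. Per the file headers, the authors deposited 1 row per gene with a signal (counts divided by size factors, averaged over libraries), a log2 fold change, a score in each of 2 columns (its standard error on the log2 scale, and the Wald statistic), the p-value and its adjusted value. Recomputing showed Benjamini-Hochberg adjustment across the 16522 rows that carry a test; another 5 rows have a mean of 0.

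The table does not name its contrast. The 68 lowest rows (means under 0.6) are whole reads over 7 steps, to within 1e-10, and only 1 assignment of steps to sides fits the signs and sizes of those fold changes: 3 steps on the negative and 4 on the positive side, as there are 3 parental and 4 knockout libraries. Size factors were 0.938 to 1.06. Group levels were computed with weights of 4 and 3 libraries, and 95% intervals are normal ones based on the deposited standard errors. Code was tested on simulated data. Python 3.11.15, scipy 1.17.1 and pandas 2.3.3 were used.

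Symbols matched 16428 of 16527 identifiers, and GENCODE 29 positions were found for 16512 rows with a test. Network members and gene lists were chosen with earlier results of these data known. Genes named from a list are the up to 3 with the smallest p whose adjusted p is under 0.05 and whose level reaches 20 in either group; others are marked as picked later. The result of 1 gene that this rule names is not reported here. Lists are described by counts and medians, with no set test.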

Additional observations from a re-analysis of the deposited data

How the results depend on the processing

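Other settings recomputed from the authors' table were a threshold of 0.01, a 2-fold minimum, a mean count of at least 20, a t distribution with 5 degrees of freedom, centring on the median (0.01 on the log2 scale) and a test for changes beyond 0.5 on the log2 scale. No direction turned under them for any gene named by the rule. Of the network members, MYCL and MXD4 kept their calls under all 6 settings, no other member gained a call, and MXD1 kept its call under 3. The number of members called higher was 1, in place of 2, with the 2-fold minimum, the t distribution and the test against 0.5. Over all genes, the t distribution called 1862 higher and 1614 lower, the 2-fold minimum 734 and 767, and the test against 0.5 called 678 and 622, against 3228 and 3053. Of 55 named genes, 35 lost their call with the 2-fold minimum, 28 with the test against 0.5, 10 with the t distribution and 1, MLXIPL, with the threshold of 0.01.

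Fits on single libraries (edgeR, refits with DESeq2, other size factors, leaving out each replicate) were not run, since values per library were not analysed here. No paired analysis was possible because the deposited table holds 1 comparison with no column per library. Depth limits MYCL, MXD3, MXD4 and MLXIPL most: for MXD3 a log2 change under 0.50 could not be called, against 0.11 for MYC.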

Other observations

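MAX and MGA also belong to the polycomb complex PRC1.6, which silences germline genes. In the authors' deposited table, 1 of its 14 subunits was higher in AXL knockout cells (7.14%, against 19.5% of all genes) and 3 were lower (21.4%, against 18.5%), with a median of 0.07. TFDP1, an E2F partner, was at 3190 in AXL knockout and 4110 in parental cells (-0.37 ± 0.04, adjusted p 2.51e-15), among 15 chromosome 13 neighbours with a median of -0.41. RNF2, the ubiquitin ligase of the complex, had -0.36 ± 0.09 (adjusted p 1.71e-04) and RYBP, a subunit, -0.27 ± 0.08 (adjusted p 0.00533). Of 15 germline genes listed, 4 were analysed, 3 of them with a mean under 20. Of these 4, 1 was higher (25%, against 19.5% of all genes) and 0 were lower (against 18.5%). The called gene was TDRKH, which serves piRNA processing, at 181 in AXL knockout and 133 in parental cells (0.45 ± 0.13, adjusted p 0.00229).

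Of 14 markers of leukocytes, endothelium and fibroblasts, 5 were analysed, with a summed level of 2185 in AXL knockout and 936 in parental cells. PECAM1, an adhesion molecule of endothelium, made up most of it, at 1777 in AXL knockout and 351 in parental cells (2.34 ± 0.07, adjusted p 1.17e-249 in the authors' deposited table). CDH5, the other endothelial marker with a mean over 20, was at 305 in AXL knockout and 455 in parental cells and did not pass (-0.57 ± 0.25, adjusted p 0.0507). CD14, a monocyte marker, was called higher at low counts, at 13.4 in AXL knockout and 2.27 in parental cells (2.57 ± 0.70, adjusted p 0.00101). COL1A1, a fibrillar collagen, had -0.59 ± 0.17 (adjusted p 0.00235).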
